A study of Mus musculus with 6 samples.

Results

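Counts were examined for 10 long noncoding RNA (lncRNA) genes, listed by symbol with no threshold on their values: Malat1, Neat1, Gas5, Snhg1, Snhg3, Snhg12, Kcnq1ot1, Miat, Pvt1 and Dnm3os. Each symbol matched a single Ensembl identifier among the 55487 genes of the deposited table, and all 10 passed the filter on low counts together with 19015 genes in all. The table holds bulk RNA-sequencing of primary cells that the labels describe as endothelial cells (ECs) from C57BL/6 mouse skin, with 3 samples in medium with 5 mmol/L glucose (normal glucose) and 3 in medium with 20 mmol/L glucose (high glucose) for 48 hours. The cells came from digested skin of 4 to 6 mice aged 2 to 3 months and were enriched with magnetic beads against CD31, so that each isolation mixes animals. No other treatment or allele is named in the labels. The study counts the RNA-sequencing replicates as mice, whereas the protocol in the labels pools mice, and neither says whether each sample was a separate isolation. P values therefore measure only the spread between these samples, which may be technical.

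LncRNAs are transcripts that are not translated into long proteins, and they act through the RNA itself, through the act of transcription, or as carriers of smaller RNAs. Malat1 gathers in nuclear speckles, bodies rich in splicing factors, and Neat1 is the scaffold of paraspeckles. Gas5 and the Snhg genes carry small nucleolar RNAs (snoRNAs) in their introns, and many snoRNAs guide the chemical modification of ribosomal RNA. The spliced host RNA of several of these genes is degraded when ribosomes engage it. Kcnq1ot1 is an imprinted antisense transcript, Dnm3os is the precursor of microRNAs, Pvt1 lies beside the oncogene Myc, and Miat was first described in relation to myocardial infarction. Malat1 and Miat have been studied in blood vessels of diabetic animals.

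The counts per sample totalled between 120192466 and 146881356, and a floor of 3 counts corresponded to 0.0204 to 0.025 CPM, that is, counts after scaling every library to a common total. The CPM given below were scaled after TMM normalization, which corrects for differences in composition between libraries. The endothelial label was checked against 12 marker genes. Pecam1, which encodes CD31, was read 19, 12 and 19 times in the normal-glucose samples and 9, 13 and 18 times in the high-glucose ones. The 8 endothelial markers that passed the filter summed to 19.7 to 20.8 CPM in normal and 18.7 to 19.2 CPM in high glucose. By the test described below, 2 of these 8 were higher and 2 were lower in high glucose. Cdh5 was among the lower ones, at a mean of 1.80 ± 0.0797 CPM in normal and 0.876 ± 0.0806 CPM in high glucose (SD, n = 3). The 9 fibroblast markers summed to 38051 to 41192 CPM in normal and 70178 to 75154 CPM in high glucose, with 8 higher and 1 lower. The 3 macrophage markers that passed the filter summed to 8.31 to 9.22 CPM in normal and 5.72 to 6.52 CPM in high glucose, with 2 lower. The 2 keratinocyte markers summed to 2.06 to 2.86 CPM in normal and 2.06 to 2.21 CPM in high glucose, with 1 higher. The data therefore go against the endothelial label, and the samples are called here by their glucose concentration alone. The part of these marker shifts in the lncRNA values was not tested. In bulk RNA, fewer cells of a type and less RNA per cell cannot be told apart.

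Poly(A)-containing RNA was selected with oligo(dT) beads before sequencing. This bears on the lncRNAs because the mature Malat1 RNA and the long Neat1 RNA end without a poly(A) tail, and only the short Neat1 form carries one. Stretches of A inside a transcript are therefore shown for the 4 members whose longest annotated transcript holds an A run of at least 12 bases and for Neat1, whose longest run is 7 bases. Such a run of 12 or more was present in 10.2% of tested genes with a transcript (1937 of 18981). The runs stand in capitals with flanking bases in lower case, read 5′ to 3′ on the strand of the gene from GENCODE M21 transcripts.
Malat1: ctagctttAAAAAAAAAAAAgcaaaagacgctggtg
Neat1: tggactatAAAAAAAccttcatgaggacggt
Snhg12: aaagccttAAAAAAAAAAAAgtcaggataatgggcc
Kcnq1ot1: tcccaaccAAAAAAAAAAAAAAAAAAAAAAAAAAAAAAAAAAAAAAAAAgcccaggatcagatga
Dnm3os: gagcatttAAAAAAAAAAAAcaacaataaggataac
The Malat1 window lies at chr19:5795972-5796007 of GRCm38 on the minus strand. Its run covers bases 6674 to 6685 of an annotated transcript of 6983, near the 3′ end. Where the mature Malat1 RNA ends relative to this run was not examined. The Kcnq1ot1 window lies at chr7:143226929-143226993 on the minus strand and holds a run of 41. The Dnm3os window lies at chr1:162224401-162224436 on the plus strand, and the Neat1 window at chr19:5835918-5835948 on the minus strand. The Snhg12 run covers bases 460 to 471 of its longest transcript. Whether the beads bound any of these runs was not tested.

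Dnm3os is shown also by the mature microRNAs inside its exon, since its count is a readout of their precursor and not of the microRNAs themselves. The sequences are those of RefSeq (GRCm38.p6), with the seed, bases 2 to 8, in capitals.
mmu-miR-199a-5p: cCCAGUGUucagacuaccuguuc
mmu-miR-199a-3p: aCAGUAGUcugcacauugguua
mmu-miR-214-5p: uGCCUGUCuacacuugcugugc
mmu-miR-214-3p: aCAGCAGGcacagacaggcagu
The miR-199a pair lies at chr1:162217844-162217866 and chr1:162217883-162217904, and the miR-214 pair at chr1:162223397-162223418 and chr1:162223438-162223459, all on the plus strand. The 4 seeds differ from one another. The microRNA genes Mir199a-2 and Mir214 had 0 to 4 counts in these libraries.

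High and normal glucose were compared to ask which genes respond to a glucose level that mimics hyperglycemia. Each gene was tested with the quasi-likelihood method of edgeR, and a gene was called where the Benjamini-Hochberg adjusted P value was under 0.05 (edgeR adjusted P). Of the 10 lncRNA genes, 1 fell (Snhg1) and none rose. DESeq2 called 3 of the 10 lower and 0 higher, beside 2988 lower and 3134 higher of the same 19015 genes. At an unadjusted P value under 0.05, 4 of the 10 were lower and 1 was higher. The share of all tested genes at that looser threshold was not counted, but it is at least the adjusted share given next. For the edgeR calls the background was larger, since 31.4% of all tested genes were called, 14.5% (2757 genes) lower and 16.9% (3212 genes) higher. Among tested genes that GENCODE M21 classes as lncRNA, 14.5% (350 of 2413) were called. Where the mean log2 CPM was 1 or more, which 7 of the 10 reached, 33.6% of lncRNA genes (114 of 339) and 38.4% of all genes (4798 of 12479) were called. High- and normal-glucose values were fully apart for 2 members, Snhg1 and Snhg3, compared with 46.4% of all tested genes. The log2 fold change of the 10, high against normal glucose, ranged from -0.60 to 0.53 with a median of -0.11, and 8 lay below 0. The median was 0.0062 over all tested genes and 0.016 over tested lncRNA genes. With library size alone in place of TMM, the median of all genes moved to -0.11, 4884 genes were lower and 1819 higher, and 4 of the 10 lncRNA genes were called lower.

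**Figure D1:**
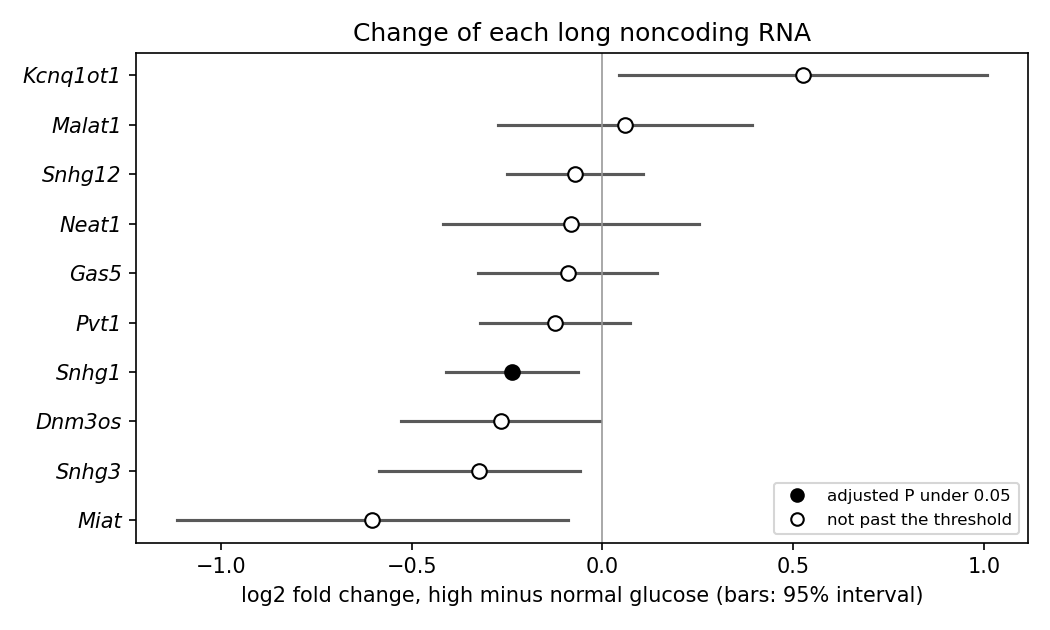
Log2 fold change of each lncRNA gene, high minus normal glucose (x axis), with its 95% interval from the fit as a bar; the filled point passed the adjusted P value threshold of 0.05. Snhg1 alone is filled, at -0.24, and the widest intervals belong to Miat and Kcnq1ot1.

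Divided by the length of annotated exons, the levels differed widely between the 10 genes. Over these lengths Malat1 had the highest level, with 50.0 ± 8.53 CPM per kb (SD, n = 6 samples), followed by Neat1 with 32.6 ± 5.46 and Gas5 with 29.9 ± 3.79. Across samples the ranges of Malat1 and Neat1 overlapped, as did those of Neat1 and Gas5. Within each of the 6 samples Malat1 lay above Neat1, whereas Neat1 and Gas5 changed places between samples. Neat1 was divided by 20771 bases, its full annotated length, which is also its longest transcript. Reads of the short form, which alone carries a poly(A) tail, would give a higher level over its own length. The place of Neat1 in this order therefore rests on the length used. Dnm3os followed with 12.7 ± 2.13 CPM per kb. Snhg12, with 6.65 ± 0.514 CPM per kb, overlapped Snhg1, with 6.32 ± 0.735. The annotated exons of Snhg12 and Snhg1 merge into 1 block over the whole gene, of 2402 and 2969 bases. That length takes in the introns that hold the snoRNAs, so spliced host RNA would have a higher level over its own length. The exons of Gas5 merge into 3 blocks with 3760 bases in all, which also take in snoRNA genes, so the same holds for Gas5. The order of Malat1, Neat1 and Gas5 therefore rests on the lengths used. Snhg3 and Pvt1 also overlapped, at 1.85 ± 0.265 and 1.74 ± 0.159 CPM per kb. The lowest levels per kb were 0.0970 ± 0.0310 for Miat and 0.0128 ± 0.00386 for Kcnq1ot1. Kcnq1ot1 is annotated as a single exon of 93092 bases, and its level per kb spreads few counts over that length. Dividing by the longest transcript instead put Gas5 (44.0 CPM per kb) above Neat1 and Pvt1 (3.67) above Snhg3 (3.14). By mean CPM without correction for length, Neat1 stood above 99.2% of tested genes, whereas Miat stood above 27.8%, so the 10 genes are not all abundant.

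**Figure D2:**
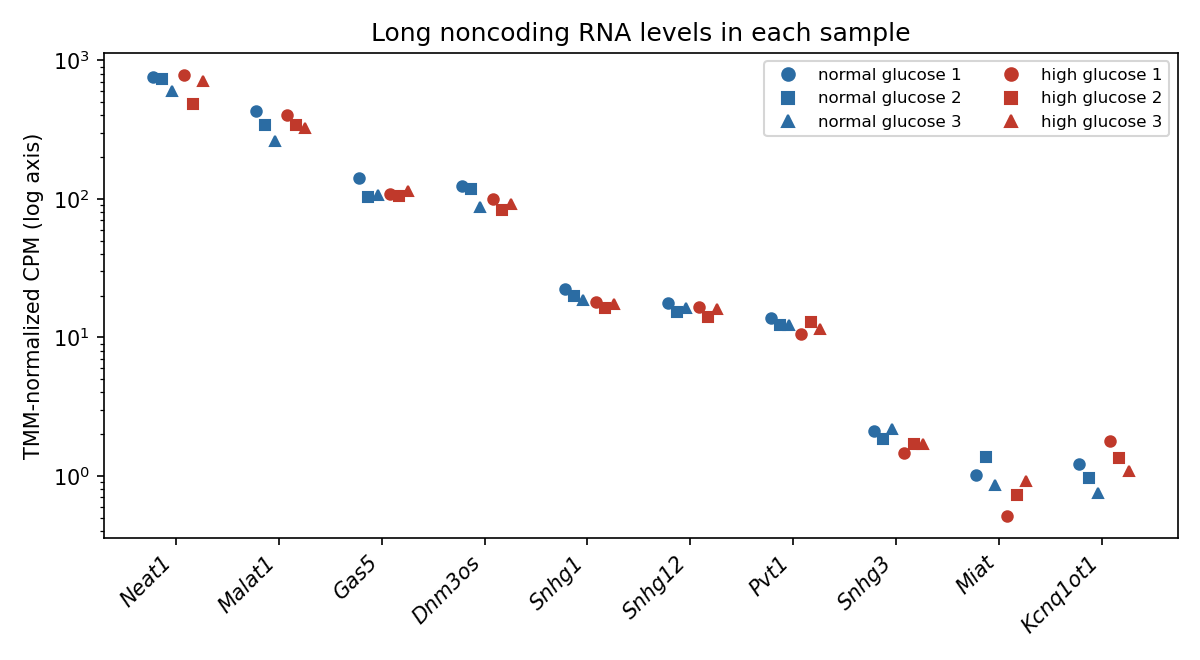
TMM-normalized CPM (y axis, log scale) of each lncRNA gene in the 3 normal-glucose samples (blue) and the 3 high-glucose samples (red); marker shape gives the replicate number. The levels are not divided by length, and blue and red points interleave for 8 of the 10 genes, all but Snhg1 and Snhg3.

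Malat1 and Neat1 lie next to each other on the minus strand of chromosome 19, at chr19:5795690-5802672 and chr19:5824708-5845478. Malat1 was at 428, 339 and 259 CPM in normal glucose and at 402, 343 and 325 CPM in high glucose. The groups overlapped completely, because normal-glucose samples held both the highest and the lowest value. The means were 342 ± 84.2 and 356 ± 40.2 CPM (SD, n = 3), and the log2 fold change was 0.06 (SE 0.15, 95% interval -0.27 to 0.39, edgeR adjusted P = 0.801). On the linear scale this interval ran from a ratio of 0.827 to 1.31. Its direction turned with library size alone (-0.06), without normal-glucose sample 3 (-0.11) and without high-glucose sample 1 (-0.05).

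Neat1 was at 760, 731 and 598 CPM in normal glucose and at 782, 486 and 705 CPM in high glucose. High-glucose samples held both extremes, with sample 2 the lowest. The means were 696 ± 86.7 and 658 ± 153 CPM, with a log2 fold change of -0.08 (SE 0.15, 95% interval -0.42 to 0.25, edgeR adjusted P = 0.721). Without high-glucose sample 2 the log2 fold change was 0.08. The gene count does not separate the short and the long Neat1 RNA.

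The replicates of these abundant nuclear RNAs spread more than those of most genes. The SD within groups was 0.28 on the log2 scale for Malat1 and 0.29 for Neat1, and 1.43% and 1.31% of the 12479 genes whose mean log2 CPM was 1 or more had a larger one. The median of those genes was 0.08. Dnm3os (SD 0.21, with 3.09% of genes larger) and Gas5 (SD 0.18, with 5.59% larger) were also spread widely. For Pvt1, Snhg12 and Snhg1, 19.3%, 24.2% and 26.8% of those genes had a larger SD. The largest SDs of the 10 were those of Miat (0.37) and Kcnq1ot1 (0.35), whose mean log2 CPM was under 1. Some samples were also the highest or the lowest of their group in many of the 10 genes. Normal-glucose sample 1 was the highest of its group in 8 of 10 genes, compared with 38.3% of all tested genes, and normal-glucose sample 3 was the lowest in 6, compared with 27.7%. In high glucose, sample 1 was the highest in 6 genes (30.9% of all tested genes) but the lowest in 3 (35.8%). Sample 2 was the lowest in 5 (35.2%) and the highest in 2 (39.9%).

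**Figure D3:**
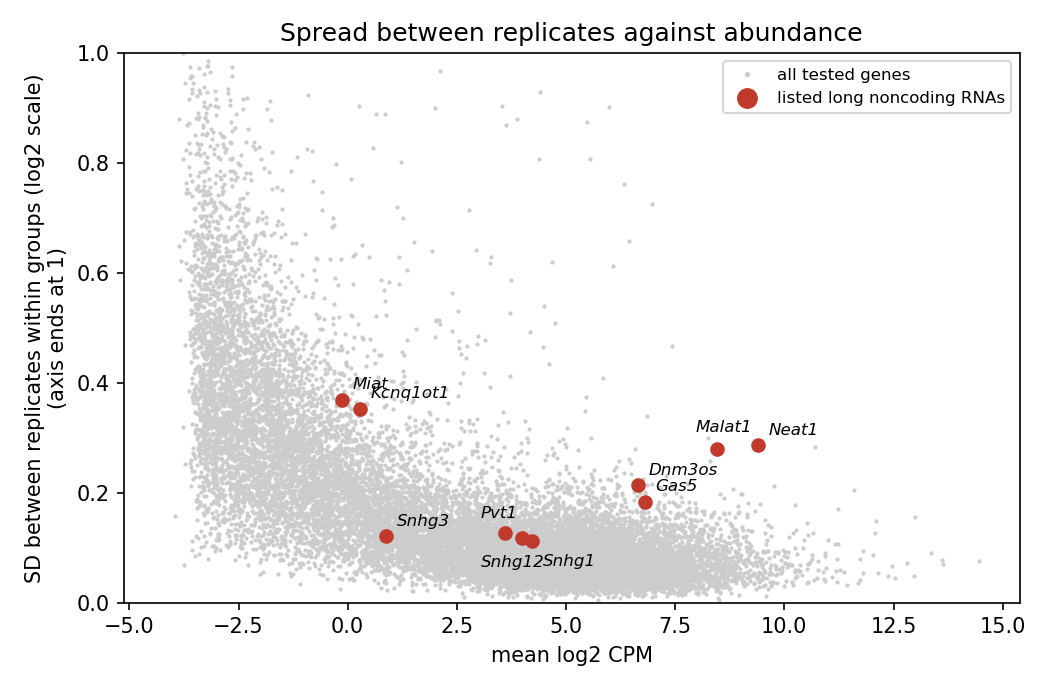
SD between replicates within groups on the log2 scale (y axis) against the mean log2 CPM (x axis) for all tested genes (grey) and the 10 lncRNA genes (red). The y axis ends at 1, which leaves out 221 tested genes; Malat1, at an SD of 0.28, and Neat1, at 0.29, lie above most genes of similar abundance.

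Among the snoRNA hosts, Snhg1 (chr19:8723475-8726443, plus strand) was at 22.5, 19.8 and 18.7 CPM in normal glucose and at 18.1, 16.2 and 17.4 CPM in high glucose. The groups did not overlap, and the gap between them was small beside the spread in normal glucose. The mean fell from 20.3 ± 1.94 to 17.2 ± 0.989 CPM (SD, n = 3), a change of -15.2% and a log2 fold change of -0.24 (SE 0.077, 95% interval -0.41 to -0.07, edgeR adjusted P = 0.0401). The two-sided exact permutation test gave P = 0.1, the smallest value that 3 samples against 3 allow. The call was lost without normal-glucose sample 1 (log2 fold change -0.18, edgeR adjusted P = 0.0604), without high-glucose sample 2 (-0.21, adjusted P = 0.113) and without high-glucose sample 3 (-0.26, adjusted P = 0.0863). It was also lost with no filter on low counts (-0.26, adjusted P = 0.0589), and over its 14 alternatives the adjusted P value ranged from 0.00743 to 0.113.

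Snhg3 (chr4:132348014-132353686, minus strand) was at 2.09, 1.83 and 2.16 CPM in normal glucose and at 1.47, 1.70 and 1.69 CPM in high glucose. Here too the high-glucose values all lay below those of normal glucose. The means were 2.03 ± 0.174 and 1.62 ± 0.129 CPM, with a log2 fold change of -0.32 (SE 0.12, 95% interval -0.59 to -0.06) that did not pass the threshold (edgeR adjusted P = 0.0622). The counts were 198 to 277 per sample and are uncertain, because 705 of the 986 exonic bases of Snhg3 are shared with Gm17300 on the opposite strand and 135 with Rcc1 on the same strand. The sources used here do not say whether counting used strand. Gm37376, which lies wholly within the Malat1 exon on the opposite strand (453 bases), had 0 counts in every sample. How far reads of Gm17300 entered the Snhg3 count was not tested. Gm17300 itself had a log2 fold change of -0.28 (edgeR adjusted P = 0.0974), and Rcc1 one of -0.10 (adjusted P = 0.289).

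Gas5 (chr1:161034422-161038539, plus strand), named for its accumulation in growth-arrested cells, was at 140, 102 and 106 CPM in normal glucose and at 108, 104 and 115 CPM in high glucose. Normal-glucose sample 1 stood above the other samples, which lay close together. The log2 fold change was -0.09 (SE 0.11, 95% interval -0.33 to 0.14, edgeR adjusted P = 0.553), and it was 0.05 without normal-glucose sample 1. Snhg12 (chr4:132308623-132311024, plus strand) was at 17.8, 15.2 and 16.2 CPM in normal and 16.5, 14.1 and 16.1 CPM in high glucose. These groups overlapped, with a log2 fold change of -0.07 (SE 0.081, 95% interval -0.25 to 0.11, adjusted P = 0.540). Snhg12 and Snhg3 lie near each other on chromosome 4.

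The wider list of snoRNA host genes held 17 tested genes, the 4 above included. Of these, 3 fell and 1 rose, compared with 14.5% and 16.9% of all tested genes, and the median log2 fold change was -0.20. Zfas1 fell by 0.53 on the log2 scale (edgeR adjusted P = 0.00245), from 26.8 ± 4.37 to 18.6 ± 0.467 CPM, and Snhg15 fell by 0.43 (adjusted P = 0.0323). Snhg5 rose from 19.7 ± 2.36 to 25.6 ± 0.985 CPM (log2 fold change 0.38, adjusted P = 0.00513). DESeq2 called 6 of the 17 lower and 1 higher, beside 2988 lower and 3134 higher of 19015 tested genes. Upper quartile factors gave 7 lower and 1 higher, beside 3407 lower and 2622 higher. With library size alone, 8 of the 17 were lower and 1 was higher, beside 4884 lower and 1819 higher of 19015 tested genes. None of the 12 tested proteins of box C/D and H/ACA snoRNPs, the particles that snoRNAs form, was called by edgeR (median -0.07). At an unadjusted P value under 0.05, 2 were lower, beside at least 14.5% of all tested genes. DESeq2 called 2 lower, beside 2988 of all tested genes. With library size alone 6 were called lower, beside the same 4884 genes and a median of -0.11 over all tested genes. Among 16 nonsense-mediated decay factors, the machinery that degrades several spliced host RNAs, 4 rose and 1 fell (median 0.12), against the same background of 16.9% and 14.5%. Smg1, the kinase of this pathway, rose from 63.5 ± 9.78 to 97.9 ± 4.53 CPM (log2 fold change 0.62, edgeR adjusted P = 7.2e-04). Dhx34 (0.38), Casc3 (0.23) and Smg6 (0.21) also rose, and Upf3b fell by 0.34 on the log2 scale. The rises of Casc3 and Smg6 were not called with library size alone.

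The proteins of the bodies in which Malat1 and Neat1 reside were read from the same fit. Of 17 tested nuclear speckle proteins, 4 rose and 1 fell (median log2 fold change 0.08), compared with 16.9% and 14.5% of all tested genes. The speckle scaffold proteins Srrm2 and Son rose, from 270 ± 33.5 to 394 ± 36.8 CPM (log2 fold change 0.54, edgeR adjusted P = 0.00155) and from 234 ± 7.19 to 287 ± 5.23 CPM (0.29, adjusted P = 0.00135). The splicing factor Srsf4 rose by 0.31 and Srrm1 by 0.16 on the log2 scale, and Srsf2 fell by 0.19. The call of Srrm1 was lost under each of the 3 other scalings. With library size alone the list's median was -0.04, beside -0.11 over all tested genes. Of 15 paraspeckle proteins, Dazap1 fell by 0.21 (edgeR adjusted P = 0.0134), 14 were not called, and the median was 0.0052, beside 31.4% of all tested genes called.

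Kcnq1ot1 (chr7:143203458-143296549, minus strand), which is transcribed from the paternal copy and silences neighbouring genes on that copy, was at 1.21, 0.973 and 0.750 CPM in normal glucose and at 1.80, 1.34 and 1.08 CPM in high glucose. The groups overlapped through normal-glucose sample 1 and high-glucose sample 3. The means were 0.979 ± 0.232 and 1.41 ± 0.362 CPM, with a log2 fold change of 0.53 (SE 0.22, 95% interval 0.04 to 1.01) that did not pass the threshold (edgeR adjusted P = 0.0908). Leaving out single samples moved it from 0.29 (without high-glucose sample 1, adjusted P = 0.376) to 0.69 (without normal-glucose sample 1, adjusted P = 0.0339). Kcnq1ot1 lies within Kcnq1 on the opposite strand and shares 121 exonic bases with it, and Kcnq1 had 0 to 4 counts. Cdkn1c, the imprinted inhibitor of cyclin-dependent kinases at 161.8 kb from Kcnq1ot1, rose from 20.3 ± 1.52 to 36.1 ± 1.22 CPM (log2 fold change 0.83, adjusted P = 6.7e-06). Tssc4 and Cd81, on the other side, fell by 0.50 and 0.31 on the log2 scale (edgeR adjusted P = 4.1e-04 and 0.00134). Slc22a18 was at 0.20 (adjusted P = 0.386), and Phlda2 had 0 to 10 counts and was not tested.

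Miat (chr5:112213228-112229395, minus strand) was at 1.02, 1.37 and 0.867 CPM in normal glucose and at 0.515, 0.722 and 0.913 CPM in high glucose. High-glucose sample 3 lay inside the range of normal glucose. The means were 1.09 ± 0.256 and 0.717 ± 0.199 CPM, with a log2 fold change of -0.60 (SE 0.23, 95% interval -1.12 to -0.09, edgeR adjusted P = 0.0716). It was -0.84 without high-glucose sample 3 (adjusted P = 0.0356), but -0.41 without normal-glucose sample 2 (adjusted P = 0.215) and -0.43 without high-glucose sample 1 (adjusted P = 0.211). This was the lowest log2 fold change of the 10 and rested on 73 to 194 counts per sample. Gm26953, which shares 2260 exonic bases with Miat on the opposite strand, had 0 counts in every sample.

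Pvt1 (chr15:62037986-62378096, plus strand) was at 13.7, 12.2 and 12.2 CPM in normal glucose and at 10.6, 13.0 and 11.4 CPM in high glucose. High-glucose sample 2 lay inside the range of normal glucose, and the log2 fold change was -0.12 (SE 0.088, 95% interval -0.32 to 0.07, edgeR adjusted P = 0.319). Myc, 47.6 kb upstream, fell by 0.19 (adjusted P = 0.0271).

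Dnm3os (chr1:162217623-162225550, plus strand) lies within Dnm3 on the opposite strand without sharing an exon. It was at 124, 118 and 87.9 CPM in normal glucose and at 99.8, 82.7 and 91.9 CPM in high glucose. Normal-glucose sample 3 lay inside the range of high glucose. The means were 110 ± 19.5 and 91.5 ± 8.58 CPM, with a log2 fold change of -0.27 (SE 0.12, 95% interval -0.53 to -0.01) that did not pass the threshold (edgeR adjusted P = 0.111). It was -0.42 without normal-glucose sample 3 (adjusted P = 0.00744), but -0.19 without normal-glucose sample 1 (adjusted P = 0.227) and -0.21 without high-glucose sample 2 (adjusted P = 0.276). DESeq2 gave -0.28 (adjusted P = 0.0301). Dnm3, which encodes a dynamin, had a log2 fold change of 0.14 (edgeR adjusted P = 0.165).

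Of the 16 tested neighbours of the 10 genes, 4 rose and 4 fell, compared with 16.9% and 14.5% of all tested genes (median log2 fold change 0.05). Beside Snhg1, Slc3a2, an amino acid transporter subunit that starts 106 bases away on the opposite strand, rose by 0.18 on the log2 scale (edgeR adjusted P = 0.0187), while Wdr74 was at 0.08. Beside Neat1, Frmd8 fell by 0.15 (adjusted P = 0.0453), Slc25a45 rose by 0.31 and Tigd3 was at -0.11. Trnau1ap, beside Snhg12, was at -0.04. Zbtb37, whose gene overlaps Gas5 on the opposite strand without a shared exon, rose by 0.31 (adjusted P = 0.0412). The rises of Slc3a2, Slc25a45 and Zbtb37 were not called with library size alone.

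A further list of well-known lncRNAs had 25 tested genes, of which 4 rose and 1 fell (median log2 fold change 0.0017), beside 14.5% of tested lncRNA genes and 31.4% of all tested genes called in either direction. Carmn, a lncRNA of smooth muscle and heart, rose from 1.56 ± 0.064 to 2.57 ± 0.408 CPM (log2 fold change 0.72, edgeR adjusted P = 0.00213). Dleu2, the host of miR-15a and miR-16-1, rose from 5.30 ± 0.633 to 8.28 ± 0.634 CPM (log2 fold change 0.64, adjusted P = 9.4e-04). Rian, an imprinted snoRNA host, fell from 199 ± 14.5 to 148 ± 5.62 CPM (log2 fold change -0.43, adjusted P = 5.6e-04). Firre rose by 0.39 and the imprinted H19 by 0.18 on the log2 scale, and with library size alone neither was called.

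**Figure D4:**
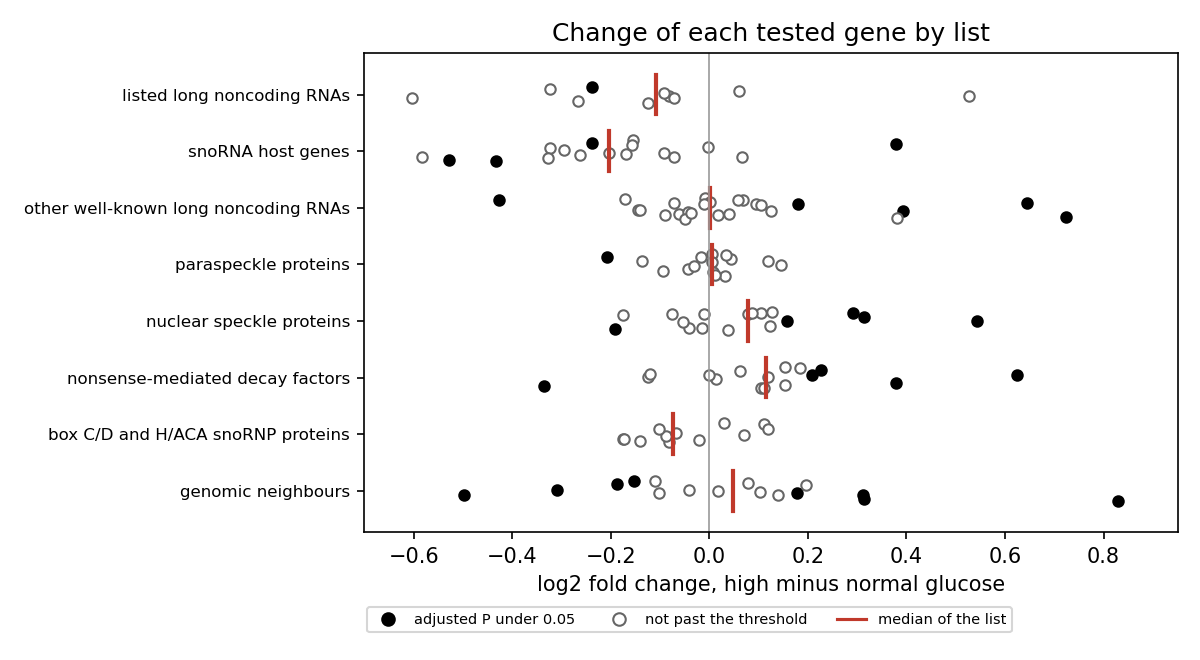
Log2 fold change, high minus normal glucose (x axis), of every tested gene in the 10 lncRNA genes and 7 accompanying lists (y axis); filled points passed the adjusted P value threshold of 0.05 and red bars are list medians. The snoRNA hosts have the lowest median, -0.20, and the farthest point to the right is Cdkn1c at 0.83.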

How the data were processed

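Per the labels and the study's methods, the authors selected poly(A) RNA and derived gene counts with Trimmomatic (trimming), HISAT2 (alignment to GRCm38) and StringTie (counting). Versions, annotation release and strand setting are not given in the sources used here. The methods name a QIAGEN kit and an Illumina HiSeq, whereas the labels name TRIzol and DNBSeq. The deposited values are whole-number counts, not normalized, for 6 samples. Both reads of a pair may have been counted, so halved counts were tried, and floors cover counting error only. The 95% intervals come from the fit and carry the spread between samples.

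Counts were filtered with filterByExpr (minimum count 10, minimum total 15), TMM-normalized and tested with edgeR 4.0.16 in R 4.3.3 (quasi-likelihood test on group, two-sided, Benjamini-Hochberg adjustment over 19015 genes, threshold 0.05). The study's methods also name edgeR. SEs come from the test statistic, and the biological coefficient of variation was 8.44%. Log2 CPM for spreads used a prior count of 2. Alternatives were DESeq2 1.42.0, other scalings, no filter, the replicate block, each sample left out, overlapping genes added and halved counts.

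Members and lists were chosen with earlier results of these data known. Named genes are the 10 members, up to 5 called genes with the largest change in each list (mean log2 CPM of 1 or more), tested neighbours, genes sharing exons with a member, Pecam1 and Cdh5. Kcnq1 and Phlda2, which were not tested, and the microRNA genes were named after their values were seen. Lists were Gas5 and other snoRNA hosts, snoRNP, decay, speckle and paraspeckle proteins, neighbours, other lncRNAs and cell type markers. Positions are from GENCODE M21 (GRCm38). Replicates of a group differed by more than sampling noise (chi-square per degree of freedom at least 9.76).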

Additional observations from a re-analysis of the deposited data

How the results depend on the processing

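Of 141 alternative log2 fold changes of the 10 genes, 119 kept direction and side of the threshold, 4 lost a call, 13 gained one and 5 turned direction; the cause was not tested. With upper quartile factors Snhg3 was called (-0.37), giving 2 lower among 3407 lower and 2622 higher genes. With library size alone Malat1 turned to -0.056, and Snhg3 (-0.44), Miat (-0.72) and Dnm3os (-0.38) were called, giving 4 lower among 4884 lower and 1819 higher genes. Without a filter Snhg1 (-0.26) lost its call, leaving 0 beside 2488 lower and 2334 higher genes. With DESeq2 Miat (-0.62) and Dnm3os (-0.28) were called, giving 3 lower among 2988 lower and 3134 higher genes. With halved counts Snhg3 (-0.34) was called, giving 2 lower among 3052 lower and 2932 higher genes. Snhg3 was also called with Gm17300 added (-0.29), an alternative chosen after seeing the data. Adding all genes with overlapping exons changed no call, but Snhg3 was then at -0.16. With the replicate block Kcnq1ot1 was called (0.52), giving 1 higher beside 2418 lower and 2909 higher genes. Same-numbered samples deviated together at correlations of -0.094, 0.17 and 0.034 across genes and 2 of 6 correlated best with their own number, so the numbers were not taken as pairs.

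Leaving out single samples, the log2 fold changes ranged from -0.11 to 0.23 for Malat1 (turned without normal-glucose sample 3, and at -0.053 without high-glucose sample 1), from -0.24 to 0.080 for Neat1 (turned without high-glucose sample 2), from -0.19 to 0.049 for Gas5 (turned without normal-glucose sample 1), from -0.30 to -0.18 for Snhg1 (called in 3 of 6), from -0.40 to -0.27 for Snhg3, from 0.29 to 0.69 for Kcnq1ot1, from -0.84 to -0.41 for Miat and from -0.42 to -0.19 for Dnm3os, the last 4 called once each. Snhg12 ranged from -0.13 to -0.02 and Pvt1 from -0.22 to -0.07, neither called; the lowest sizes were without high-glucose sample 2 and high-glucose sample 1, the highest without normal-glucose sample 2 and high-glucose sample 2. Between 0 and 2 members were lower and 0 and 1 higher. Genes called higher numbered 1988 (without high-glucose sample 3) to 3149, and 2010 without high-glucose sample 1. Those called lower numbered 2048 (without high-glucose sample 3) to 3065 (without normal-glucose sample 2). Per kb of the longest transcript, Gas5 was at 44.0, Snhg12 at 10.4, Snhg3 at 3.14 and Pvt1 at 3.67 CPM. With 73 to 194 counts for Miat and 96 to 255 for Kcnq1ot1, depth limits those values more than the others.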

Other observations

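The table lists separate genes for small RNAs whose annotated bodies overlap exons of the host genes, and nearly all of them held the same value. Of 10 snoRNA genes inside Gas5, 8 had exactly 1 count in each of the 6 samples, as did all 8 inside Snhg1 and all 5 inside Snhg12. Snora73a, which shares 159 of its 205 bases with Snhg3 exons, had 4 to 6 counts. In the same libraries Gas5 itself had 12148 to 17575 counts, and Snhg1 had 1880 to 2814. The reason for the repeated value was not tested, and the counts of these small RNA genes were not used as a measure of snoRNAs.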
